A study of Mus musculus with 8 samples.

Results

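Mouse embryonic stem (ES) cells of the lines HM-1 and R1 were set against each other after nocodazole on 4 of the 8 microarrays of the study. These 4 arrays were chosen by their titles, which give the treatment (spelled Nocodazol) and replicates 1 to 4. Each array carried RNA of both lines, both treated, labelled with different dyes and hybridised together. Of 16255 features (genes, with the probes of a symbol averaged, or single probes without a symbol), 15431 had a value on at least 3 of the 4 arrays, and 9489 of these had a gene symbol. The other 4 arrays compared untreated HM-1 with untreated R1. HM-1 carried Cy5 on nocodazole replicates 1, 2 and 3 and on untreated replicates 1 and 2, and Cy3 on nocodazole replicate 4 and untreated replicates 3 and 4. The dyes are thus swapped on 3 of the 8 arrays, fewer than the design text states, so a dye label in error cannot be told apart from a true one. Dose, length of treatment, passage number and genotype of the lines are not stated in the labels. The labels' protocols describe homogenised organs and a reference pool made from animals, whereas both channels are labelled with the ES lines throughout. No label calls the replicates separate cultures, and the p-values given here therefore reflect array-to-array spread that could be technical.

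ES cells are derived from the inner cell mass of the blastocyst and divide quickly, and in culture some cells leave the pluripotent state for primitive endoderm, the lineage that forms the yolk sac and that makes basement membrane and endocytic proteins. Nocodazole binds tubulin and depolymerises microtubules, so that chromosomes cannot attach to a spindle, the spindle checkpoint stays on and cells stop in mitosis. Loss of microtubules is also known to free regulators that act on the actin cytoskeleton, and free tubulin lowers the stability of tubulin mRNA.

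Every value is a log2 ratio between the lines, with the sign as deposited and each array centred on its median. Which line stands above the division line is stated in none of the labels and could not be settled, so values are called positive or negative and no line is called higher. If the sign follows the dye and not the line, the values of replicate 4 must be turned. The extreme values set to missing (above 10 in size) had a positive median on every array with HM-1 in Cy5. Their median was negative on every array with HM-1 in Cy3. What this means for the direction of the ratio was not tested. An error in the sign or the dye label of replicate 1 cannot be told apart from a true difference of that array, and its values keep the deposited sign throughout. Both channels of an array come from treated cells, so no value gives the effect of the drug within a line. A ratio carries no level, so ES cell identity could not be checked by the presence of its markers. In these mixed populations, fewer cells of a type and less RNA per cell cannot be told apart.

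The arrays held 17964 to 19342 values each, and replicate 3 spread most, with an SD of 1.28 against 0.78 to 0.84 on the others. Over all features, replicates 1, 2 and 3, with HM-1 in Cy5, correlated weakly with each other, with Pearson's r from 0.093 to 0.115. Each of them correlated negatively with replicate 4, where HM-1 was in Cy3, with r of -0.232 for replicate 1, -0.121 for replicate 2 and -0.152 for replicate 3. These correlations run over features, which are not independent replicates. Many large values were exact repeats: of the values at least 0.5 in size, 22.3% on replicate 1, 12.2% on replicate 2, 8.8% on replicate 3 and 32.2% on replicate 4 were shared, to the 3 decimals deposited, by at least 20 probes of the array. A value of -0.72 stood on 134 probes of replicate 4, and a value of -1.18 on 110 probes of replicate 1. Near 0.5 in size, an average value stood on 3.4 to 4.0 probes. Spot brightness was not analysed here.

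No gene passed the test for a difference between the lines after nocodazole. In limma's moderated test over 15431 features, with the dye as a term, 0 features (0%) passed an adjusted p of 0.05, and the smallest adjusted p was 0.0990. At an unadjusted p under 0.05 limma gave 550 features (3.56%), 319 positive (2.07%) and 231 negative (1.5%), where 772 would be expected if no ratio differed from 0. No difference from the untreated ratio passed either: of 14015 features limma called 0 (0%), with a smallest adjusted p of 0.138, and 467 (3.33%) had an unadjusted p under 0.05, 230 positive (1.64%) and 237 negative (1.69%), where 701 would be expected. The arrays disagreed in sign for most genes. Of 8445 named genes with all 4 values, 471 (5.58%) were positive and 378 (4.48%) negative on all 4 arrays.

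Among genes with large values on every array, a single array often stood apart. A total of 287 named genes had all 4 values at least 0.5 in size, a limit chosen after the data had been seen. Of these, 112 (39%) were negative on replicates 1 to 3 and positive on replicate 4, the array with the other dye orientation. Another 32 (11.1%) were positive on replicate 1 and negative on replicates 2 to 4. Only 15 were negative and 7 positive on all 4 arrays. At any size, the first pattern held for 749 (8.87%) and the second for 880 (10.4%) of the 8445 genes. The reverse of the first, negative on replicate 4 alone, held for 660 (7.82%) at any size and for 6 genes at 0.5.

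**Figure D1:**
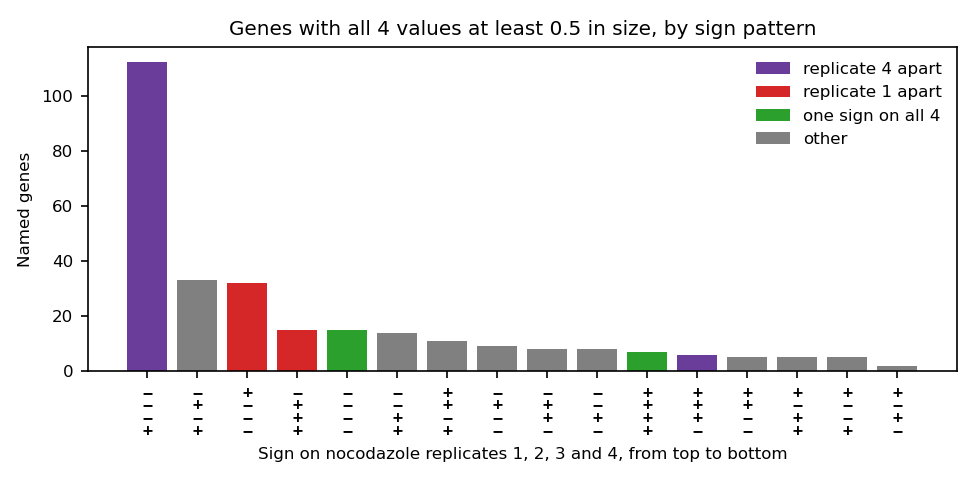
Number of named genes (vertical axis) with each combination of signs on nocodazole replicates 1 to 4 (horizontal axis, signs read from top to bottom), for the 287 genes whose 4 values were all at least 0.5 in size. The combination with replicate 4 apart and positive holds 112 genes, the combination with replicate 1 apart and positive holds 32, and the combinations of a single sign hold 15 and 7.

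The 32 genes that were positive on replicate 1 and negative on the other 3 arrays had values close in size on all 4. Their medians were 0.81 on replicate 1, -0.79 on replicate 2, -0.78 on replicate 3 and -0.85 on replicate 4. Replicates 2 and 3 (HM-1 in Cy5) and replicate 4 (HM-1 in Cy3) gave nearly the same value for each gene: the SD among these 3 arrays had a median of 0.10 and was under 0.2 for 24 of the 32. The size on replicate 1 lay within 0.25 of the mean size on the other 3 for 24 of the 32. On the untreated arrays the medians were -0.46, -0.57, -0.68 and -0.64. Of the 31 genes measured on all 4 untreated arrays, 23 were negative on all 4, against 0 positive on all 4. The share of all named genes negative on all 4 untreated arrays was not counted, so the 23 of 31 stand without that reference. Of the 32 genes, 7 carried a repeated value of the kind above and 25 did not, and 26 were measured by a single spot. Klhl13 and S100a6 were at the limit with -0.50 on replicate 3, and Actc1 (-0.45 on replicate 2) and Hspb2 (-0.43 on replicate 2) fell just outside it. The 32 were chosen for this pattern, so their nocodazole values are a description without a test.

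Id1 encodes an inhibitor of helix-loop-helix transcription factors and is a direct target of BMP signalling in ES cells. Its values were 1.32 on replicate 1, -1.30 on replicate 2, -1.16 on replicate 3 and -1.34 on replicate 4. On the untreated arrays it lay between -0.28 and -0.46, so that each of replicates 2 to 4 was more negative than every untreated array, and replicate 1 was positive. Over replicates 2 to 4 its mean was -1.27 ± 0.09 (SD, n = 3), a 2.40-fold difference between the lines in a direction not settled here. With all 4 arrays limma fitted a ratio of -0.73 (SE 0.46) with an adjusted p of 0.999. Without replicate 1 the fitted ratio was -1.28 (SE 0.10) with an adjusted p of 0.270, and its difference from the untreated arrays was -0.92 (SE 0.12) with an unadjusted p of 0.000459 and an adjusted p of 0.983 in limma. Id1 is among the genes chosen because replicate 1 stood apart. The fit without that array therefore describes selected values and is not a test of them. Id3, another target of BMP signalling, did not share the pattern. It was at 0.50, 0.39 and 0.54 on replicates 1 to 3 and at -0.91 on replicate 4, and its pair of spots disagreed on replicate 1, at 2.02 and -1.02.

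Prph and Krt8 encode intermediate filament proteins, peripherin of peripheral neurons and keratin 8 of simple epithelia. Prph read 1.53, -1.30, -1.47 and -1.33 on replicates 1 to 4, and Krt8 read 1.40, -0.92, -1.28 and -1.16. Untreated values of Prph lay between -0.76 and -1.34, and those of Krt8 between -0.67 and -1.34. For both genes replicates 2 to 4 thus fell in or near the untreated range, and replicate 1 had about the same size with the opposite sign. Anxa2 encodes annexin A2, which links membranes to actin, and it read 0.73, -0.55, -0.84 and -0.77, against untreated values from -0.41 to -0.76. Promoter windows of these 3 genes are given because, of 23 of the 32 genes matched in the RefSeq promoter table (GRCm38.p6, windows of 300 bases that end shortly after the annotated start), they are the 3 that hold TATAAA on either strand. TATAAA, the core of the TATA box, is in 14.2% of all 27025 promoters in the table. Each window is printed 5′ to 3′ on the gene's strand with TATAAA in capitals, and in Krt8 a copy on each strand overlaps. They lie at chr15:99054924-99055223 (plus strand) for Prph, chr15:102004293-102004592 (minus strand) for Krt8 and chr9:69453433-69453732 (plus strand) for Anxa2.
Prph: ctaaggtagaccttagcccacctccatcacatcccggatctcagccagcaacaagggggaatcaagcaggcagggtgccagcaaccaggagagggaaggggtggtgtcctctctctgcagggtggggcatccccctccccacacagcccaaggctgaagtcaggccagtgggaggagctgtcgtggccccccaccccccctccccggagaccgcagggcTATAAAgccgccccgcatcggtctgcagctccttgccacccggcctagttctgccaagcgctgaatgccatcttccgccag
Krt8: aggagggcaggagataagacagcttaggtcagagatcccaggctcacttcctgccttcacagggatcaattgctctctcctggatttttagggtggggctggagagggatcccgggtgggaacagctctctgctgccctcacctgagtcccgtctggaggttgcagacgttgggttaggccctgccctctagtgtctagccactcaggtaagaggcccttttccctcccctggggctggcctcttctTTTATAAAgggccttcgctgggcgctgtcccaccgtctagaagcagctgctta
Anxa2: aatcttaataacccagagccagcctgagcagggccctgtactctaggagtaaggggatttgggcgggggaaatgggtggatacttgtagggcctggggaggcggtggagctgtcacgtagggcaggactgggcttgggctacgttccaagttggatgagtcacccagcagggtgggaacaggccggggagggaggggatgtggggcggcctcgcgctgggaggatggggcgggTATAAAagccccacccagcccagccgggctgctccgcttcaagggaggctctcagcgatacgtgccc
Other motifs were searched on both strands in the same 23 promoters. GGGCGG, the GC box, was in 14 (35.9% of all promoters hold it), TGANTCA, the AP-1 site, in 3 (7.93%), and the CArG box in 1, that of Herpud1 (1.57%). A match says only that these letters are in the window.

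Sparc encodes a secreted matrix glycoprotein that parietal endoderm makes in large amounts. Its values were 1.23 on replicate 1, -1.22 on replicate 2, -1.12 on replicate 3 and -1.26 on replicate 4, and from -0.68 to -0.97 on the untreated arrays. Each of its 3 spots gave the pattern, with 1.15, 1.21 and 1.33 on replicate 1 and values from -0.91 to -1.38 on the other 3. Cryab, which encodes the small heat shock protein alphaB-crystallin, read 1.18, -1.08, -1.58 and -1.07, with both of its spots positive on replicate 1 and negative on the others. Hspb2, its head-to-head neighbour on chromosome 9 and another small heat shock gene, read 0.65, -0.43, -0.55 and -0.57. Both genes therefore had the sign of replicate 1 against the other arrays, as Sparc had.

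The remaining members of the 32 are given with what each encodes, and no shared role was tested. Of the 32, 17 are in any of the 30 gene lists (9 endoderm, 3 matrix, 3 fibroblast and 2 actin genes among them). The share of all named genes in any list was not counted. The endoderm list held 23 of the 8445 named genes with 4 values. The lists were written with earlier results of these data known. Dab2, an endocytic adaptor, read 1.27, -0.82, -1.22 and -1.08, Cubn, the receptor cubilin, read 1.68, -0.83, -0.64 and -1.16, and Spink1, a secreted trypsin inhibitor, read 1.14, -1.03, -0.78 and -0.92. Serpinh1, the collagen chaperone HSP47, read 1.25, -0.84, -0.71 and -1.09, Timp2, a metalloproteinase inhibitor, read 0.79, -0.63, -0.68 and -0.94, and Gpc4, a glypican, read 0.81, -0.78, -0.72 and -0.87. Ctsl and Ctsh, lysosomal cathepsins, were at 0.68 on replicate 1, and Ctsl lay between -0.64 and -0.84 and Ctsh between -0.64 and -0.80 on the others. Clu, the extracellular chaperone clusterin, read 1.20, -1.12, -1.19 and -0.92. Gsn, the actin-severing protein gelsolin, and Actg2, smooth muscle gamma-actin, had values on replicate 1 of 0.64 and 0.54. Slc13a5, a citrate transporter, read 0.80, -0.84, -0.80 and -0.79, and Me1, malic enzyme, had the same signs. Akap2, Klhl13, Lgals3, S100a6 and Myo3b complete the set, with values on replicate 1 from 0.55 for Klhl13 to 0.98 for S100a6.

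A pair of the 32 are known targets of endoplasmic reticulum stress and were not negative on all untreated arrays. Nor were Cubn, Tnfrsf12a, Sox17, Magi3, Sppl2a and Tmem203, also among the 32. Ddit3, which encodes the transcription factor CHOP, read 0.78, -0.70, -0.70 and -0.56 with nocodazole and 0.44, -0.07, -0.26 and -0.39 without. Herpud1, which acts in the degradation of misfolded proteins, read 0.61, -0.60, -0.57 and -0.58 with nocodazole and -0.23, 0.07, -0.31 and -0.51 without. For each, the nocodazole values on replicates 2 to 4 lay close together, while the untreated ones crossed 0. The value of Ddit3 on replicate 2 was among the repeated ones, as were those of Klhl13 and S100a6 on replicate 3. Tnfrsf12a, the receptor for the cytokine TWEAK, read 0.90, -0.71, -0.81 and -0.75. Atp10d, Magi3, Sppl2a and Tmem203 also had the signs of the set, but each carried 1 or 2 repeated values and most spread widely, Tmem203 from -1.24 to -3.02 on replicates 2 to 4.

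**Figure D2:**
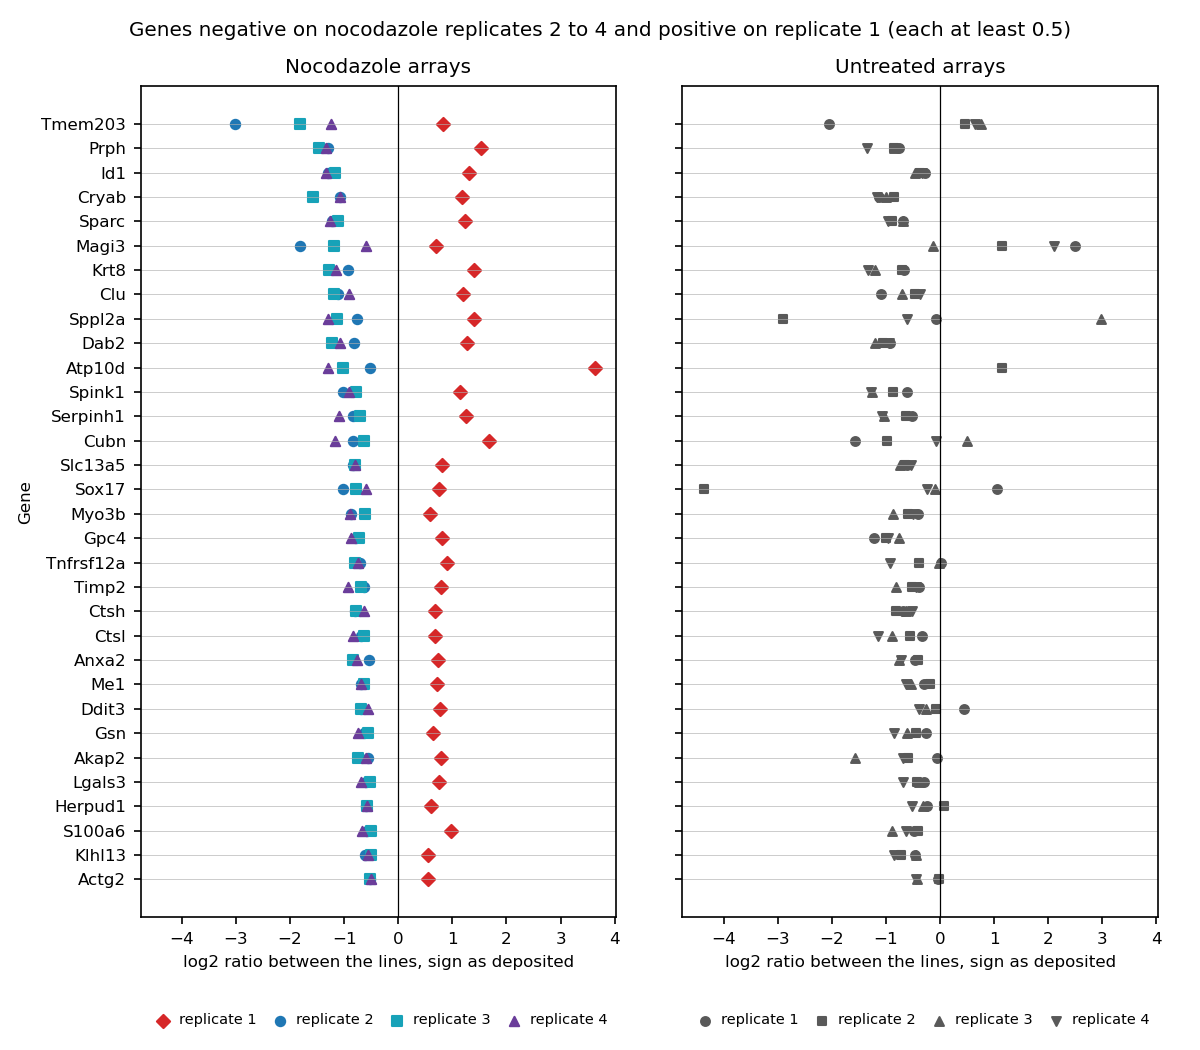
Log2 ratios between the lines (horizontal axes, sign as deposited) of the 32 genes positive on nocodazole replicate 1 and negative on replicates 2 to 4, by gene (vertical axis), on the nocodazole arrays (left) and the untreated arrays (right); each point is an array. Replicate 1 lies on the right of 0 at about the distance at which the other 3 nocodazole arrays lie on the left, and most genes are left of 0 on the untreated arrays, 23 of 31 on all 4.

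The same split appeared in genes chosen without the nocodazole arrays. Of 7488 named genes with all 8 values, 21 were below -0.5 on each of the 4 untreated arrays. With nocodazole their medians were 0.75 on replicate 1, -0.82 on replicate 2, -0.80 on replicate 3 and -0.64 on replicate 4. Of the 21, 6 were negative on replicate 1, against 19 on replicate 2, 18 on replicate 3 and 16 on replicate 4. The combination of replicate 1 positive and the others negative held for 14 of the 21, where it held for 10.4% of all named genes with 4 nocodazole values. Most of the 14 were already among the 32 genes above, so the sets overlap. These are Cryab, Ctsh, Dab2, Gpc4, Krt8, Prph, Serpinh1, Slc13a5, Sparc and Spink1. Besides genes described above, Thbs1, which encodes the matrix protein thrombospondin 1, read 0.65, -0.61, -0.86 and -0.47, Pth1r, a receptor for parathyroid hormone-related protein, read 0.83, -0.61, -0.38 and -0.71, Amot, the scaffold angiomotin, read 0.46, -0.95, -0.83 and -0.52, and Aass, an enzyme of lysine breakdown, read 0.75, -0.69, -0.62 and -0.12. With a limit of -0.3 the set grew to 56 genes with medians of 0.65, -0.51, -0.61 and -0.52, and 34 of them had the combination.

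The 9 genes above 0.5 on all untreated arrays did not keep their sign. Their medians with nocodazole were -0.18, 0.42, 0.08 and -0.10 on replicates 1 to 4. Sav1, a scaffold of the Hippo pathway, averaged -0.26 on replicate 1 and 0.22, 0.23 and 0.25 on the others, after 0.56 to 1.36 untreated. Its spots disagreed. A spot read 0.99 to 2.95 untreated and -0.47, 0.62, 0.37 and 0.47 with nocodazole. The other stayed between -0.23 and 0.23 untreated and between -0.18 and 0.08 with nocodazole. Tspan14, a tetraspanin, ranged from -2.23 to 1.53 with nocodazole. For 37 genes above 0.3 on all untreated arrays, the nocodazole medians lay between -0.05 and 0.12.

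**Figure D3:**
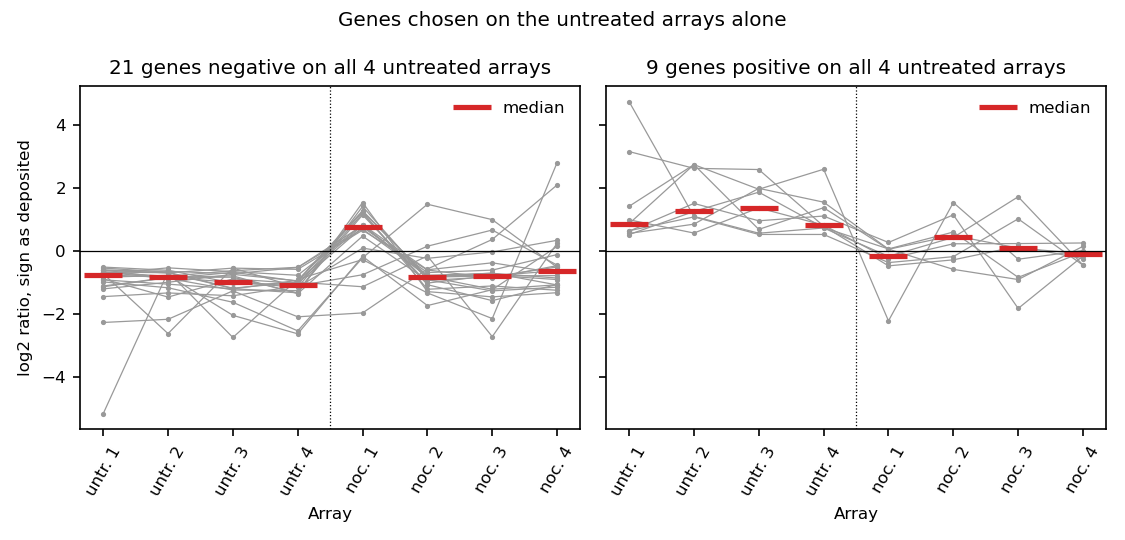
Log2 ratios between the lines (vertical axes, sign as deposited) of genes chosen on the untreated arrays alone, on the 4 untreated (untr.) and 4 nocodazole (noc.) arrays; each thin line is a gene and each bar the median. The 21 genes below -0.5 on all untreated arrays (left) have a median of 0.75 on nocodazole replicate 1 and of -0.64 to -0.82 on replicates 2 to 4, and the 9 genes above 0.5 (right) have medians from -0.18 to 0.42.

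With the signs as deposited, genes of primitive and parietal endoderm had the largest share with this combination among the 30 gene lists. The lists were written with earlier results of these data known, so this rank is a description without a test. Of 37 listed, 26 were tested, 23 with a negative and 3 with a positive mean, where 54% of all named genes and 52.8% of all features had a negative mean. The list medians were 0.51, -0.59, -0.74 and -0.47 on replicates 1 to 4. The combination of replicate 1 positive and the others negative held for 16 of the 23 members with 4 values (69.6%), against 10.4% of all named genes. With replicate 4 turned, 0 of the 23 had it, against 463 of all named genes (5.5%), and the largest share was 6 of 33 heat shock proteins and chaperonins (18.2%). In limma 0 endoderm members passed the adjusted threshold or an unadjusted p of 0.05. Apoe, apolipoprotein E, read 0.51, -0.40, -0.38 and -0.43, and Lrp2, the receptor megalin that works with cubilin, read 0.54, -0.55, -0.26 and -0.36. Sox17, a transcription factor of endoderm, read 0.76, -1.02, -0.78 and -0.59, but its untreated values ran from -4.36 to 1.06. Defining genes of the lineage did not all follow: Gata6, its key transcription factor, read -0.21, -0.23, 0.16 and 0.17, and Col4a1, a basement membrane collagen, read -1.28, 0.65, 0.15 and 0.11. Col4a2, its partner chain, read 0.10, -2.57, -2.20 and -2.89.

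Among other lists of cell shape and matrix, the combination held for 26 of 50 genes of the actin cytoskeleton as deposited (52%) and for 4 (8%) with replicate 4 turned, with list medians of 0.24, -0.25, -0.31 and -0.14. Lasp1, an actin-binding adaptor, read 0.60, -0.50, -0.55 and -0.56, Tagln2, transgelin 2, read 0.81, -0.33, -0.47 and -0.78, and Tmsb4x, the actin-binding peptide thymosin beta 4, read 0.54, -0.43, -0.30 and -0.68. Actc1, cardiac actin, read 0.76, -0.45, -0.60 and -0.51. Coro1c, a coronin, and Cfl1, cofilin, did not show it, at 0.30, 0.52, -0.04 and 0.64 for Coro1c and at 0.04 to 0.17 for Cfl1. As deposited, the combination held for 5 of 11 intermediate filament genes, 14 of 36 genes of extracellular matrix and 12 of 33 fibroblast genes. It held for 2 of 6 trophectoderm genes and 8 of 31 genes of adhesion and integrins, against 10.4% of all named genes. With replicate 4 turned, the counts of these lists were 0, 2, 2, 0 and 4, against 5.5% of all named genes. Among fibroblast genes with the combination, P4ha1, which hydroxylates collagen, read 0.55, -0.53, -0.60 and -0.50. S100a4 read 0.63, -0.33, -0.88 and -0.58, and Vim, vimentin, read 0.32, -0.32, -0.14 and -0.30. Most of the 33 did not show it. Of these, Mmp2 read -1.59, -4.99, -2.97 and -0.23, and Twist1 read -0.18, 0.81, -1.41 and -1.53.

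Markers of other cell types that the cultures could hold moved in part with these lists. Of 9 primitive endoderm markers, 7 were measured, with sums of 1.39, -2.34, -9.33 and -0.80 on replicates 1 to 4, and 3 had the combination. Of 11 fibroblast markers, 10 were measured, with sums of 0.78, -2.30, -5.76 and 0.00, and 5 had it. Of 12 ES cell markers, 9 were measured, with sums of -3.27, 3.36, 2.53 and -0.32, and 1 had it. Of all named genes with 4 nocodazole values, 10.4% had it. Trophectoderm markers (3 of 8 measured) summed to 1.33, -1.46, -3.48 and -1.77, and 1 had the combination. Neural markers (4 of 5) summed to 0.31, 2.05, 5.91 and 0.77 and mesoderm markers (3 of 5) to 0.44, 0.82, -0.97 and 0.53. In both of these sets 0 had the combination. Medians had the sign of the sums except in a few cases. On replicate 4 the median was 0.11 for primitive endoderm markers and 0.12 for ES cell markers. On replicate 1 it was -0.295 for mesoderm markers. For fibroblast markers the median on replicate 4 was -0.22, where the sum was 0.00. The part of any such cells in the ratios was not tested.

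**Figure D4:**
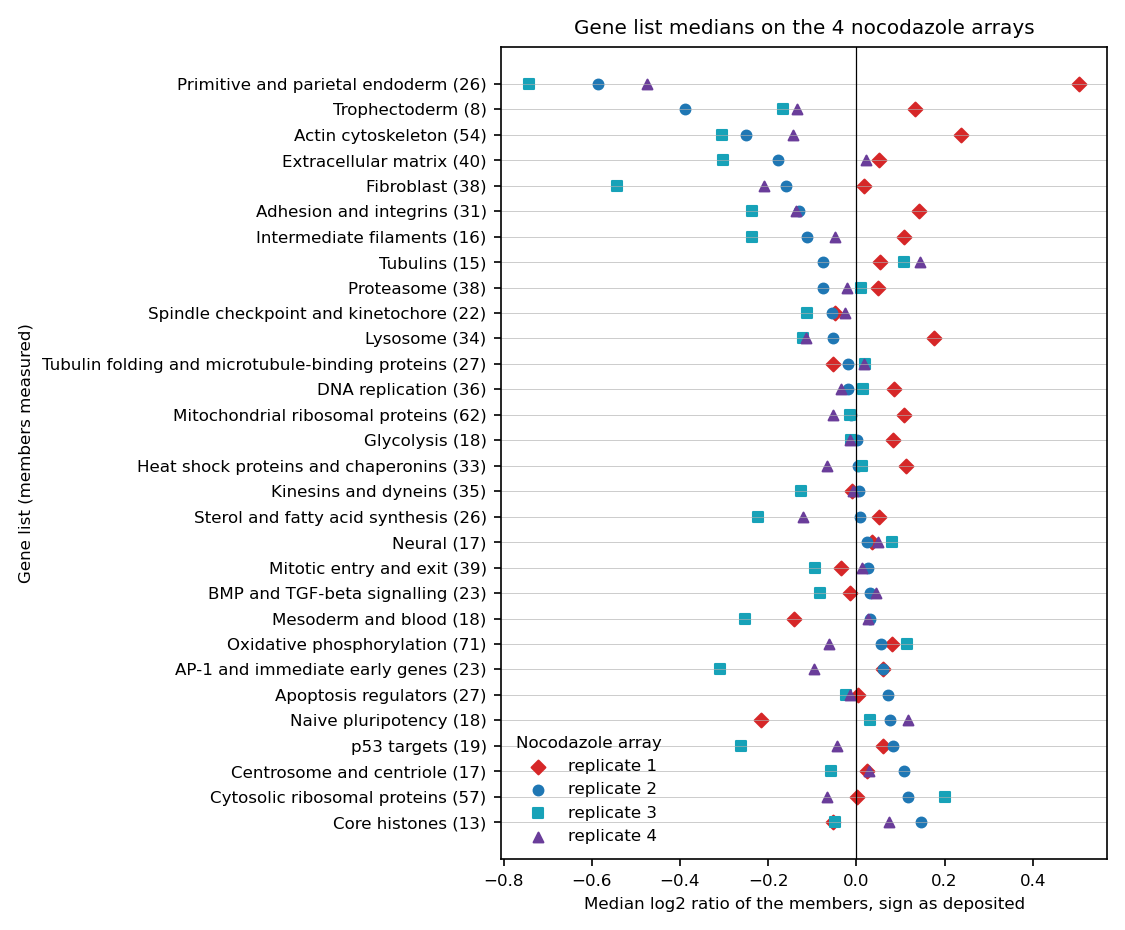
Median log2 ratio of the members of each of 30 gene lists (horizontal axis, sign as deposited) on the 4 nocodazole arrays, by list (vertical axis, with the number of members measured); each point is an array. The endoderm list stands at 0.51 on replicate 1 and at -0.47 to -0.74 on the others. The actin list stands at 0.24 and at -0.14 to -0.31. Many other lists lie near 0, but fibroblast genes reach -0.54 on replicate 3 and trophectoderm genes -0.39 on replicate 2. AP-1 genes reach -0.31 and matrix genes -0.30 on replicate 3.

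Among tubulins, the target of nocodazole, the combination held for 1 of 12 members with 4 values (8.3%), near the 10.4% of all named genes. Its mirror image (replicate 1 negative, the others positive) held for 3 of the 12, against 7.07% of all named genes. Of 15 measured, 11 had a positive and 4 a negative mean, with a median of the means of 0.08, and 0 passed an unadjusted p of 0.05 in limma. Tubb5, the main beta-tubulin of dividing cells, read -0.54, 2.47, 3.16 and 0.75 on replicates 1 to 4. Tubb3, the neuronal beta-tubulin, read 0.14, 1.89, 3.35 and 0.86, and Tubb2a read 1.76, 1.30 and 0.18 on replicates 2 to 4. These 3 beta-tubulins were positive on replicates 2, 3 and 4 by very different amounts, and for Tubb5 limma fitted 1.62 (SE 0.72) with an adjusted p of 0.999. Other isotypes took either sign: Tubb4b read -0.19, 0.21, 0.35 and 0.20, Tubb6 read 0.08, -0.31, -0.11 and -0.15, and Tubb2b read 0.10, 0.11, 0.11 and 0.01. Tubb4a averaged -1.13, -0.41, -0.48 and 0.08, with a spot near 0 throughout and a spot at -2.18, -0.75, -1.02 and 0.10. The alpha-tubulins Tuba1a, Tuba1c and Tuba8 stayed between -0.10 and 0.13 on all 4 arrays. Tuba3b read 0.44, -0.66, 1.73 and 0.15, and Tuba1b read -1.10, 0.24 and 0.28 and Tuba4a 0.67, -0.46 and -0.51 on replicates 1, 2 and 4, so that Tuba4a had the signs of the combination on the arrays that measured it.

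Genes of the spindle and of mitosis had list medians near 0. The median of the member means was -0.01 for 27 tubulin-folding and microtubule-binding genes, 0.00 for 35 kinesins and dyneins, -0.03 for 22 genes of the spindle checkpoint and kinetochore, -0.03 for 39 genes of mitotic entry and exit and -0.01 for 17 centrosome genes. Cdk1, the mitotic kinase, read 0.15, -0.16, -0.11 and 0.00, Cdc20, the activator that the checkpoint restrains, read 0.19, -0.20, -0.03 and -0.34, and Mad2l1, the checkpoint protein MAD2, read 0.03, 0.09, 0.35 and -0.01. Top2a, the topoisomerase of mitotic chromosomes, lay between -0.07 and 0.03 on all 4 arrays. Mad2l1bp, which turns the checkpoint off by binding MAD2, read -1.10, -0.36, -0.11 and -0.54, after 0.27, 2.95, 0.60 and 0.42 untreated. Anapc7, a subunit of the anaphase-promoting complex, averaged -0.93, 0.63, 1.63 and 1.94, but its 3 spots disagreed, at 0.03, -2.88 and 0.08 on replicate 1.

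Pluripotency genes did not move together. Of 18 measured, 11 had a negative and 7 a positive mean, with list medians of -0.22, 0.08, 0.03 and 0.12. Esrrb, an orphan nuclear receptor of the pluripotency network, read 2.21, 2.85 and 1.02 on replicates 2 to 4 with no value on replicate 1, and lay between -0.13 and 0.25 untreated. Zfp42, the ES cell marker Rex1, lay between -0.22 and 0.22, and Sox2 read 0.23, -0.28, -0.34 and -0.21. Lefty1, a Nodal antagonist, was positive on all 4 arrays at 0.05, 0.35, 0.80 and 0.34, as it was untreated at 0.18 to 0.62. Klf2 was negative on replicates 1 and 4 and positive on replicates 2 and 3. In BMP and TGF-beta signalling the combination held for 1 of 21 members, which is Id1, and the median of the 23 means was -0.02.

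Housekeeping lists stayed close to 0. The median of the means was 0.06 for 57 cytosolic ribosomal proteins, 0.00 for 62 mitochondrial ribosomal proteins, 0.04 for 71 genes of oxidative phosphorylation, -0.01 for 38 proteasome subunits, 0.03 for 18 genes of glycolysis, 0.01 for 33 heat shock proteins and chaperonins, 0.01 for 36 genes of DNA replication and 0.02 for 13 core histones. The combination, which 10.4% of all named genes had, held for 7 of 32 genes of DNA replication (21.9%), 9 of 57 mitochondrial ribosomal proteins (15.8%), 5 of 65 genes of oxidative phosphorylation (7.7%), 1 of 32 proteasome subunits, 2 of 17 genes of glycolysis, 3 of 33 heat shock proteins and chaperonins and 1 of 9 core histones. Among cytosolic ribosomal proteins it held for 1 of 56, and its mirror image (replicate 1 negative, the others positive) for 7, against 7.07% of all named genes. Rps15a was the clearest, at -0.53, 0.64, 0.80 and 0.54, and it was positive on all 4 untreated arrays at 0.40 to 0.71. Lysosomal genes showed the combination in 9 of 33 members and genes of sterol and fatty acid synthesis in 7 of 24, with medians of the means of -0.08 and -0.09. With replicate 4 turned, it held for 2 members of each of these lists. Against the same 10.4%, it held for 2 of 18 p53 targets (11.1%), 4 of 26 apoptosis regulators (15.4%), 4 of 20 AP-1 and immediate early genes (20%), 1 of 16 neural genes (6.2%) and 2 of 15 genes of mesoderm and blood (13.3%). In no list did a member pass limma's adjusted threshold.

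Genes of a single sign on all 4 arrays are the ones on which both dye orientations and replicate 1 agreed. The 10 negative genes of smallest unadjusted p were led by Prmt5, an arginine methyltransferase that modifies histones and spliceosome proteins, at -1.28, -1.70, -2.08 and -1.53, of which the values on replicates 2 and 4 were repeated on many other probes. limma fitted -1.64 (SE 0.19) for Prmt5 with an unadjusted p of 0.000557 and an adjusted p of 0.999, and it was also negative on the 2 untreated arrays with a value, at -1.88 and -2.05. Rfesd, a Rieske iron-sulfur domain protein, read -3.18, -4.27, -3.14 and -2.66, and Foxred1, an assembly factor of respiratory complex I, read -1.62, -0.63, -1.57 and -3.31. Jdp2, a repressor of AP-1 targets, read -0.46, -1.01, -1.39 and -0.68 with nocodazole and from 0.21 to 0.78 without, so that the 2 conditions did not overlap. Its change of -1.36 (SE 0.23) had an unadjusted p of 0.000780 and an adjusted p of 0.997 in limma. Prkag2, a regulatory subunit of the kinase AMPK, read -0.55, -0.51, -0.30 and -0.77 against 1.26, 0.91 and 0.56 on the 3 untreated arrays with a value. Phf19, of the Polycomb complex PRC2, read -0.56, -0.18, -0.55 and -0.57 and was negative untreated too.

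Several of these averages hid spots that disagreed. Sod2, mitochondrial superoxide dismutase, averaged -0.83, -0.58, -0.45 and -0.62, but only a single spot was far from 0, with the other at 0.11 on replicate 1. Mrfap1 and Dnajc3, an endoplasmic reticulum co-chaperone, likewise had a spot that was not negative on all arrays, and Samd14, the last of the 10, had a single spot. On the positive side, Cacul1, a cullin-domain activator of CDK2, averaged 1.11, 0.73, 2.09 and 1.27 and was negative on all untreated arrays at -0.03 to -0.53. One of its spots read -0.16 on replicate 2 and -0.07 on replicate 4, and the other had a value on a single untreated array, so the averages of the 2 conditions rest on different spots. Ap2s1, a subunit of the clathrin adaptor AP-2, was measured by a single spot at 2.28, 3.21, 2.85 and 0.64, against -1.05, -0.85, 1.15 and -0.22 untreated. 4930415O20Rik read 2.63, 1.89, 2.09 and 2.09, of which the values on replicates 1 and 4 were repeated on other probes. The other positive genes were Gm973, Ercc8, Utp14a, Dpp3, Pomgnt2, Cops8 and Prpf40b, with means from 0.46 to 0.95 and an adjusted p of 0.999 each in limma. Neither spot of Ercc8, Utp14a or Cops8 was positive on every array that measured it. Of the 20 genes, 12 carried no repeated value.

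**Figure D5:**
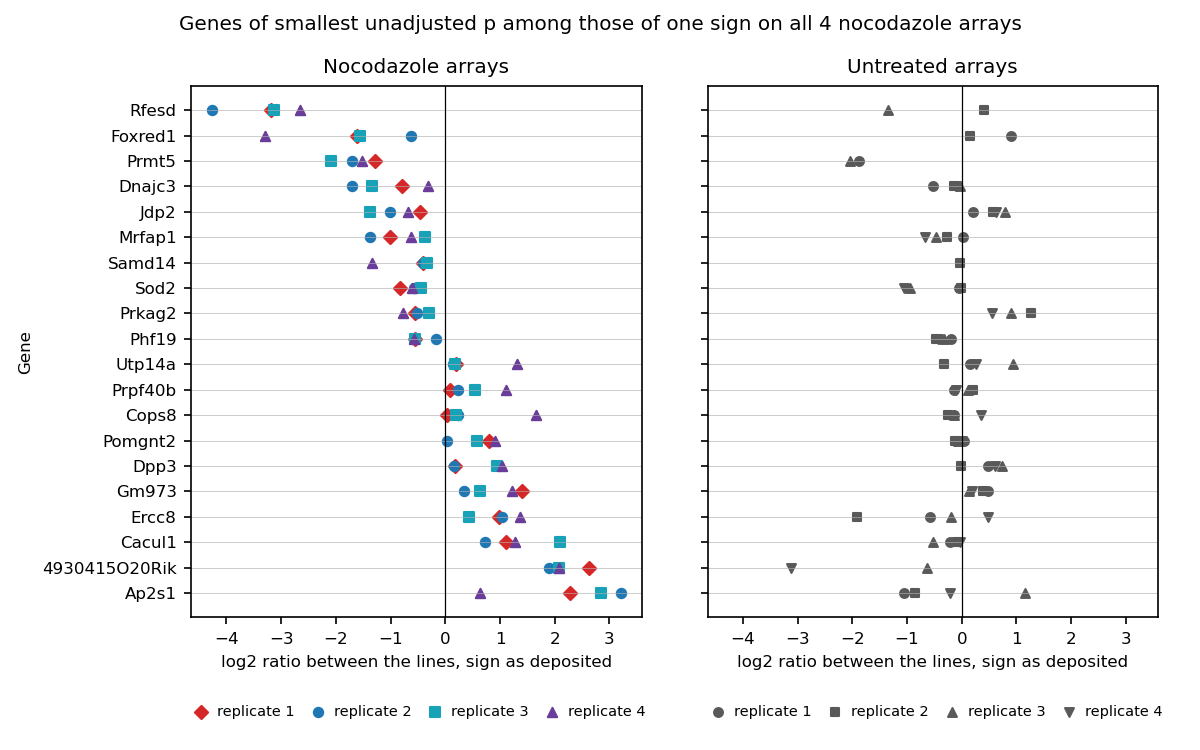
Log2 ratios between the lines (horizontal axes, sign as deposited) of the 10 negative and 10 positive named genes of smallest unadjusted p among those of a single sign on all 4 nocodazole arrays, by gene (vertical axis), on the nocodazole (left) and untreated (right) arrays; each point is an array. Rfesd and Ap2s1 lie farthest from 0, and Jdp2 is negative on all nocodazole arrays and positive on all untreated arrays.

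The 112 genes with replicate 4 apart and positive were less even than the 32 with replicate 1 apart. Their nocodazole medians were -1.40, -1.10, -1.79 and 1.51, and the SD among replicates 1 to 3 had a median of 0.69, against 0.10 for the other set. On the untreated arrays their medians were -1.02 and -0.22 on replicates 1 and 2, where HM-1 was in Cy5, and 0.95 and 0.90 on replicates 3 and 4, where it was in Cy3. Only 33 of the 112 had all 4 untreated values, of which 3 were negative and 2 positive on all 4. A repeated value was carried by 58 of the 112 (51.8%), against 7 of the 32 (21.9%). The medians of the 112 genes had the sign of the dye orientation on all 8 arrays, while those of the 32 were negative under both orientations on every array but nocodazole replicate 1. The part of dye in either set was not tested.

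Genes with the mirror image, negative on replicate 1 and at least 0.5 on the other 3 arrays, were fewer and less even. There were 15 with every value at least 0.5 in size, the SD among replicates 2 to 4 had a median of 0.53, and 9 of the 15 carried a repeated value. They include Tubb5, Anapc7 and Rps15a, Nde1, which acts with dynein at the centrosome, at -0.54, 0.63, 0.99 and 0.72, and Lbr, the lamin B receptor of the nuclear envelope, at -0.80, 0.75, 1.29 and 0.58. By the size on replicates 2 to 4 alone, with any opposite value on replicate 1, 46 negative and 21 positive genes qualified. The largest negative ones were Col4a2, Maip1, Prpf38a, Larp6, Tmem203, Tlr6, Sned1 and Prph, and all but Prph spread by over 0.3 (SD) among these 3 arrays. The largest positive ones besides Tubb5 and Anapc7 were Hsd17b3, Rap1a, Ankrd42, Prdm6, Tceanc2 and Selenon, of which Hsd17b3 reached 5.41 on replicate 3 and read 0.59 and 0.81 on replicates 2 and 4.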

How the data were processed

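Ratios of HM-1 and R1 on 8 two-channel cDNA arrays were used, 4 of them with nocodazole. The authors deposited log2 ratios of the channels per probe; background correction, normalization, scanner and the direction of the ratio are not stated in the labels, and spot signals were not used here. Values above 10 in size were set to missing (74 to 156 per nocodazole array). The code reads about 16.5 on nocodazole replicates 1 to 3 and -16.4 on nocodazole replicate 4. On the untreated arrays it reads 17.0 and 16.8 on replicates 1 and 2, and -16.9 and -16.8 on replicates 3 and 4. Each array was then centred on its median, which had been 0.115, 0.002, 0.111 and -0.026. Of 20355 probes, 14030 had 1 gene symbol, 5 several and 6320 none; 13994 symbols were updated by gene ID, and probes of a symbol were averaged.

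Ratios were tested with limma 3.58.1 and statmod 1.5.0 in R 4.3.3: a coefficient per condition over all 8 arrays, HM-1's dye as a term, two-sided, Benjamini-Hochberg adjustment over all features, threshold 0.05. The step was checked on simulated data. Array number, 4 per condition, limits the precision. The members, the 30 gene lists and the rules were chosen with earlier results of these data known. Named genes are those past the threshold, the 10 of smallest unadjusted p in each direction among those of a single sign on all 4 arrays, the 8 largest in each direction on replicates 2 to 4 (each at least 0.5) with replicate 1 opposite, up to 4 per list of largest absolute median, tubulins and genes named in earlier work on these data. Others named here were chosen after their values were seen, as were the size limits, the repeated values and the promoter motifs. Alternatives turned, left out, scaled or weighted arrays, changed the dye term or kept coded values; 4 alternatives for the pattern counts and 1 for the list shares (replicate 4 turned) were added after seeing the data. All deposited columns belong to a sample (0 left over). Replicate numbers were not treated as pairs in the main fit.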

Additional observations from a re-analysis of the deposited data

Results flagged for a closer look

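Of 184 groups of 4 nocodazole values examined (the named genes with 4 values and the list medians), 26 had a sample far from the other 3, where about 1 in 20, or 9.2, would be by chance. Of the 26, 17 lay on replicate 1, 6 on replicate 4, 2 on replicate 2 and 1 on replicate 3. On replicate 1 the distant values were positive for Actc1 (0.76), Ctsh (0.68), Ctsl (0.68), Dab2 (1.27), Gpc4 (0.81), Gsn (0.64), Hspb2 (0.65), Id1 (1.32), Krt8 (1.40), Prph (1.53), Serpinh1 (1.25), Slc13a5 (0.80), Sparc (1.23), Spink1 (1.14) and Sfn, the p53 target 14-3-3 sigma (0.47). They were negative for Sav1 (-0.26, the average of spots at -0.47 and -0.05) and for Pdk1, a kinase that restrains pyruvate dehydrogenase (-0.20). The other values of Pdk1 were 0.31, 0.39 and 0.37. Many of these genes were named because earlier work showed replicate 1 apart in them, so their number says nothing of its own.

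On replicate 4 the distant values were those of Cops8, a subunit of the COP9 signalosome (1.66), Id3 (-0.91), Rpl4 (-1.27), Samd14 (-1.34), Tubb2b (0.01) and Utp14a, of the small-subunit processome (1.31). The Tubb2b value differs from the other 3 by only about 0.1 on the log2 scale. On replicate 2 they were those of Mrpl42, a mitochondrial ribosomal protein (0.19, against -0.83, -0.74 and -0.84), and Phf19 (-0.18). On replicate 3 the median of the kinesins and dyneins (-0.12) stood apart from 3 medians near 0.

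A further 4 named genes had one sign on every nocodazole array and the other on every untreated array: Cacul1 (mean with nocodazole 1.30), H4c1, a core histone gene (-0.30), Jdp2 (-0.89) and Mad2l1bp (-0.53). limma's test of the change gave unadjusted p-values of 0.00281, 0.00298, 0.000780 and 0.0289 and an adjusted p of 0.997 for Jdp2, so none passed after adjustment. H4c1 rests on different spots in the conditions: a spot had no value on nocodazole replicate 1 or on untreated replicates 3 and 4, and the other was positive on nocodazole replicate 3, at 0.12. Over 7488 named genes with all 8 values, 37 (0.494%) were opposite in this way, 17 positive and 20 negative with nocodazole.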

How the results depend on the processing

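No feature passed the adjusted threshold in either comparison under any alternative run. The count at an unadjusted p under 0.05 for the nocodazole ratio, 550, became 1025 with the arrays with HM-1 in Cy3 turned and 882 with replicate 1 turned, and it ran from 396 (without replicate 2) to 861 (without replicate 4) when an array was left out; without replicate 1 it was 703. With replicate 1 turned, the smallest adjusted p in limma was 0.0567, for Id1. That gene had been named because replicate 1 stood apart in it, so this value is no independent test. A replicate block beside the dye term gave 678 features at an unadjusted p under 0.05 in limma, and 581 for the change between conditions. In each, 0 passed the adjusted threshold. Deviations of same-numbered arrays correlated at 0.116, 0.037, -0.052 and 0.128, and 3 of 4 arrays matched their own number best. Those were replicates 1, 2 and 4, which had HM-1 in the same dye in both conditions, unlike replicate 3. The part of dye in these matches was not tested. The titles give only replicate numbers, so pairing could not be settled, and the main fit has no term for it. For the change, counts ran from 387 to 583 with an array left out. Genes with replicate 1 apart and negative elsewhere numbered 92 at a size of 0.3 and 49 with each probe on its own, against 32; genes with replicate 4 apart and positive numbered 198 and 169, against 112. Of 30 list medians, 5 moved by more than the spread between arrays without centring, 2 with the Cy3 arrays turned, 1 with replicate 1 turned, and 2, 4, 0 and 3 without replicates 1, 2, 3 and 4. Of 157 named genes, 22 moved with the Cy3 arrays turned, 21 with replicate 1 turned, 3 with coded values kept and 1 without centring. The cause of these shifts was not tested. Signal over background was not analysed, so what faint spots limit is unknown; the median SD between spots of a gene was 0.29 to 0.58.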
